A study of Mus musculus with 2 samples.

Results

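The guidance genes described here are the semaphorins, plexins, neuropilins, Eph receptors and ephrins. Members were chosen by symbol alone, with no measured value, as every gene of the Sema3 to Sema7, Plxn, Nrp, Epha, Ephb, Efna and Efnb families in the matrices. Earlier results of these data were known when this set was defined. The choice gave 53 of 32285 genes: 20 semaphorins, 9 plexins, 2 neuropilins, 14 Eph receptors and 8 ephrins. They were measured in dissociated dorsal root ganglia, where the somata of somatosensory neurons lie among glia, connective tissue and vessels, taken from mice on postnatal day 4. One library (flox, 1 sample) came from Ptges3 flox/flox mice without the Cre. The other (cKO, 1 sample) came from Dhh CRE+, Ptges3 flox/flox mice. Both groups carry the floxed allele of Ptges3, which encodes a cochaperone that is also known as an enzyme making prostaglandin E2. Dhh-Cre is driven by desert hedgehog sequence and is used to recombine alleles in the Schwann cell lineage. The study concerns prostaglandin E2 from Schwann cells and sensory neuron excitability. The labels do not say how many animals were pooled in each library.

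Semaphorins are secreted or membrane-bound cues. Class 3 semaphorins act through a neuropilin, which binds the cue, and an A-type plexin or Plxnd1, which signals. Most other semaphorins bind plexins directly. Ephrins are bound to the membrane, and their contact with Eph receptors on a neighbouring cell can signal in both cells. In peripheral nerve and ganglion these systems are known for steering sensory axons, for the sorting of Schwann cells and fibroblasts, and for patterning blood vessels.

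There is 1 library per genotype, so no statistical test between them was possible, and intervals cover counting error only. A level is the UMIs (unique molecular identifiers, each counting 1 captured RNA molecule) of a gene summed over the cells of a class, scaled to counts per 1000000 UMIs of that class (CPM). Since the 3′ protocol counts each molecule once, levels of different genes were compared without a length correction. The flox library kept 8107 cells and the cKO library 7866, with median depths of 6886 and 4319.5 UMIs per cell, and the libraries shared 23 cell barcodes. Neuron-like cells had medians of 47549 UMIs in flox (1515 cells) and 9568.5 in cKO (2824 cells), and every other class compared was also shallower in cKO. Ptges3 itself was lower in cKO in all glia-like cells, at 130 against 255 CPM (log2 ratio -0.97). In neuron-like cells it was higher, at 387 against 276 CPM. The flox library also held 592 oligodendrocyte-like and 168 astrocyte-like cells, types of the central nervous system, and the cKO library held 0 of either. Summed oligodendrocyte markers were higher in flox in other classes too, at 428 against 93.9 CPM in fibroblast-like cells and 995 against 54.9 CPM in macrophage-like cells.

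Each class was named from marker genes that are not members, and the members were left out of the genes used for clustering. All 53 members had at least 50 UMIs in the filtered cells of both libraries together. For 38 of the 53 members, the same class of the 9 compared had the highest level in both libraries. By both libraries together, endothelial-like cells had the highest level of 13 members, fibroblast-like cells of 10, neuron-like cells of 9, myelinating Schwann-like cells of 7 and mural-like cells of 6. Satellite-glia-like cells led for 3 members, macrophage-like and other glia-like cells for 2 each, and cycling glia-like cells for 1. The neuropilins both peaked in endothelial-like cells, whereas the Eph receptors were spread over 8 of these classes and only 7 of the 14 kept their leading class in both libraries.

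**Figure D1:**
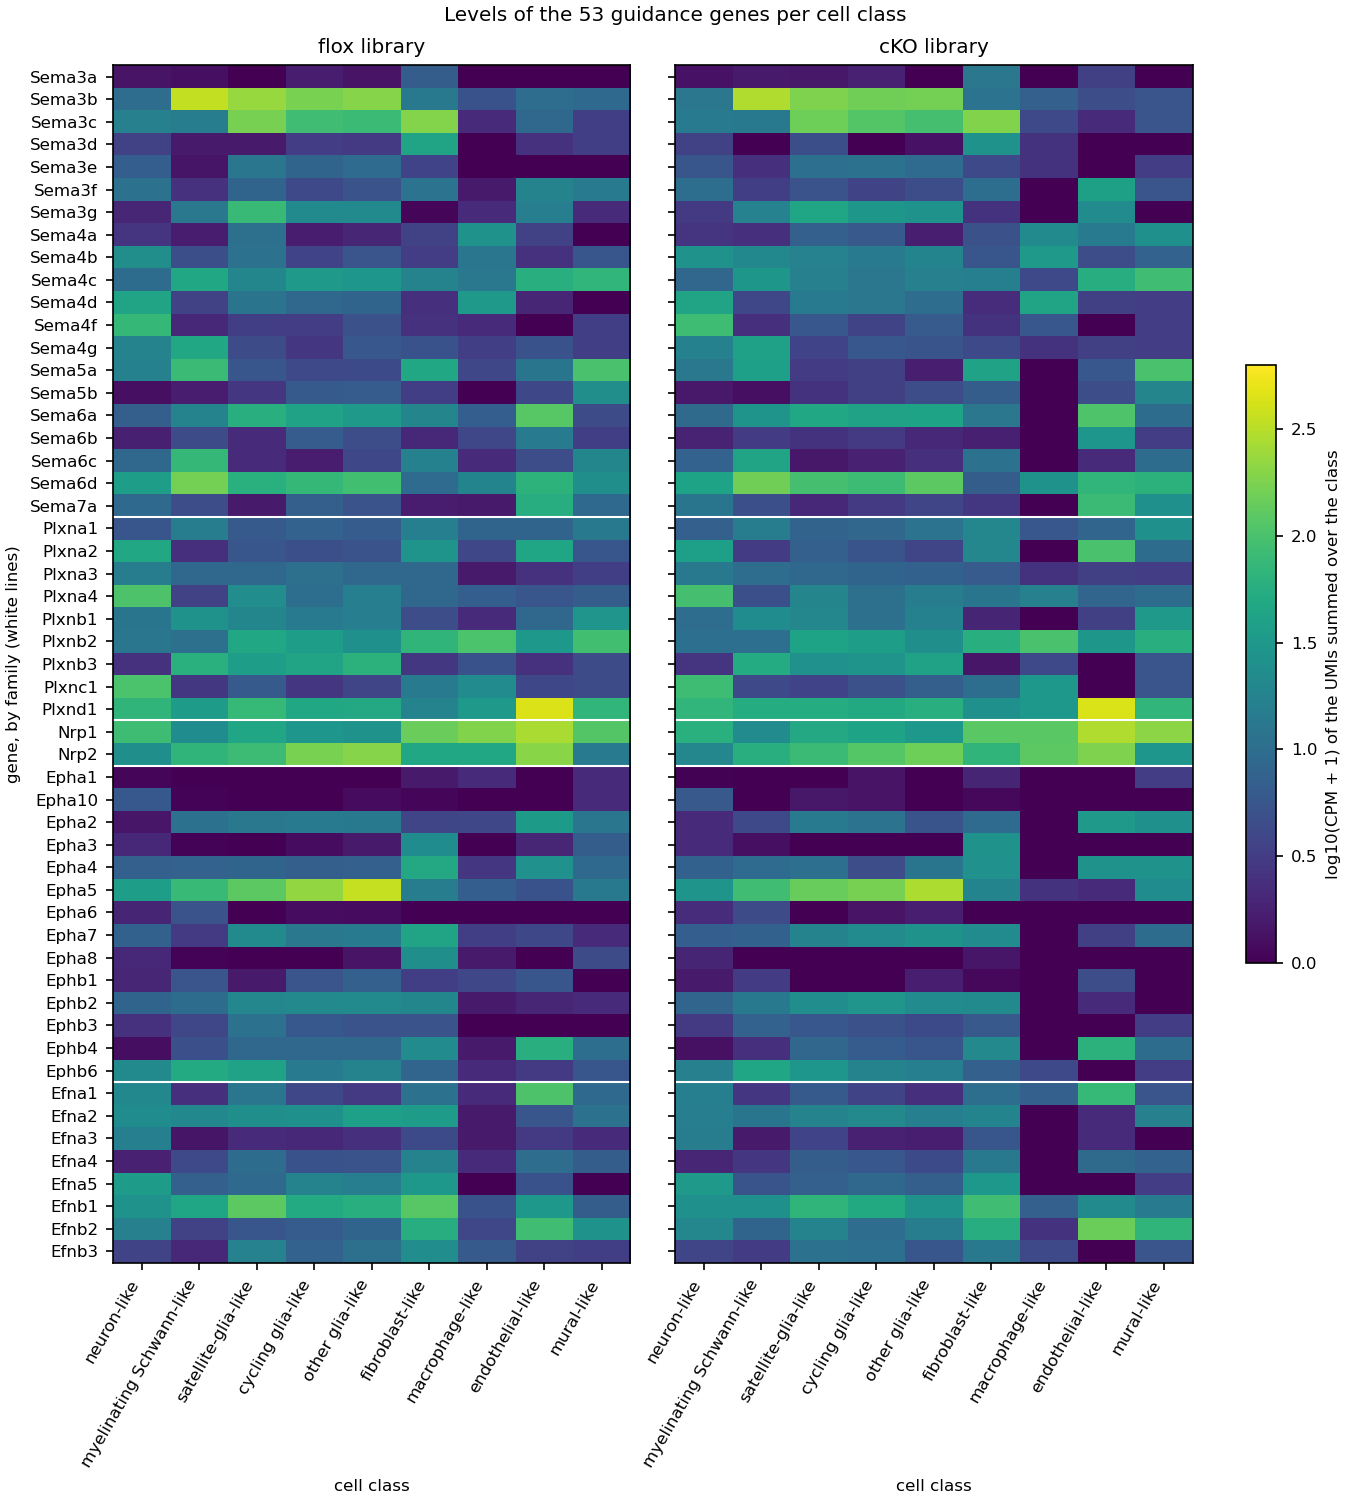
Level of each of the 53 guidance genes (rows, grouped by family with white lines between families) in 9 cell classes (columns), in the flox and the cKO library; colour is log10(CPM + 1) of the UMIs summed over the class. Sema3b is bright across the glial columns and Plxnd1 is brightest in endothelial-like cells, in both libraries.

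Among the secreted semaphorins, Sema3b (ENSMUSG00000057969, chr9:107597674-107609229, minus strand, GRCm38) was the leading glial cue. In myelinating Schwann-like cells it stood at 350 CPM in flox (95% interval 340 to 360, 4875 UMIs) and 294 CPM in cKO (276 to 313, 1012 UMIs). Satellite-glia-like cells had 232 and 182 CPM of Sema3b, and neuron-like cells 9.12 and 12.0 CPM. A Sema3b UMI was found in 82.1% of flox and 63.1% of cKO myelinating Schwann-like cells. After every cell was thinned to 1000 UMIs the shares were 27.6% (25.5 to 29.8) and 22.8% (19.8 to 25.9). Mural-like cells, picked because their Sema3b share was the lowest of the classes with at least 100 cells, had 0% of 120 flox cells (which allows up to 3.03%) and 0.595% of 168 cKO cells. Those mural-like cells had median depths of 4715 and 2220.5 UMIs, and the Schwann-like cells 7237.5 and 4144 UMIs. Sema3c, another secreted cue, had its highest level in fibroblast-like cells, at 187 CPM in flox and 184 CPM in cKO, followed by satellite-glia-like cells at 167 and 150 CPM. Sema3c was low in myelinating Schwann-like cells, at 14.2 and 12.5 CPM. The 2 class 3 cues thus divided the glia, with Sema3c over 10 times higher in satellite-glia-like than in myelinating Schwann-like cells of either library and Sema3b high in both. Sema3d was a fibroblast-like gene at 41.8 and 26.2 CPM, and Sema3a was also highest there, at 5.72 and 12.0 CPM. Sema3g was highest in satellite-glia-like cells, at 76.3 and 44.7 CPM.

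The membrane-bound semaphorins followed other lines. Sema6d was highest in myelinating Schwann-like cells, at 162 and 155 CPM. Sema6c and Sema5a also peaked among glia in these cells: flox held 72.0 and 79.1 CPM of them and cKO 41.8 and 36.6 CPM. Mural-like cells held the highest level of Sema5a in both libraries, at 97.5 CPM in flox and 97.6 CPM in cKO. Sema4f was the neuronal member of the family, at 72.7 CPM in flox and 83.8 CPM in cKO neuron-like cells against at most 5.39 CPM in any of the other 8 classes. Sema4d was shared between neuron-like cells (42.6 and 42.5 CPM) and macrophage-like cells (31.5 and 42.4 CPM). Sema7a was led by endothelial-like cells (54.6 and 80.4 CPM), as was Sema6a (116 and 105 CPM).

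Plxnd1 (ENSMUSG00000030123, chr6:115954811-115995005, minus strand), the plexin best known from blood vessels, stood at 443 CPM in flox (414 to 473) and 441 CPM in cKO (397 to 488) in endothelial-like cells. The next class for Plxnd1 reached 73.9 CPM in flox and 68.7 CPM in cKO. After thinning, 41.9% of flox and 29.5% of cKO endothelial-like cells had a Plxnd1 UMI (91.0% and 75.2% unthinned). The lowest class, fibroblast-like, had 1.87% and 2.45% for Plxnd1, with median depths of 6858 and 4649.5 UMIs against 8870 and 4536 in endothelial-like cells. Plxna4 and Plxnc1 were neuronal, at 104 and 102 CPM in flox and 93.5 and 83.5 CPM in cKO. Among non-neuronal classes Plxna4 reached at most 22.7 CPM and Plxnc1 at most 29.8 CPM, the latter in macrophage-like cells. Plxnb3 was glial, with 58.2 and 52.0 CPM in myelinating Schwann-like cells and at most 1.60 CPM in neuron-like cells of either library. Plxnb2 was highest in macrophage-like cells, at 101 and 97.3 CPM.

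The neuropilins, which bind class 3 semaphorins and vascular endothelial growth factors, were both vascular and neural. Nrp1 (ENSMUSG00000025810, chr8:128358604-128503363, plus strand) stood at 279 and 290 CPM in endothelial-like, 185 and 119 CPM in macrophage-like, 143 and 120 CPM in fibroblast-like and 112 and 206 CPM in mural-like cells, flox before cKO. Nrp2 had 200.2 and 180 CPM in endothelial-like cells. In glia Nrp2 was highest in the other glia-like class, at 195 and 151 CPM, and lowest in myelinating Schwann-like cells, at 67.5 and 58.1 CPM.

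Epha5 was the leading Eph receptor of glia (ENSMUSG00000029245, chr5:84054761-84417382, minus strand). Its level was 359 CPM in flox and 284 CPM in cKO other glia-like cells, 222 and 166 CPM in cycling glia-like cells, 124 and 139 CPM in satellite-glia-like cells and 76.6 and 87.2 CPM in myelinating Schwann-like cells. Of the other glia-like cells, cluster 1 held 1014 flox and 45 cKO cells and cluster 2 held 59 and 987. This order of the 4 glial classes for Epha5 was the same in both libraries. Ephb4, a venous receptor in textbook accounts, and its ligand Efnb2, the arterial one, were both highest in endothelial-like cells. Ephb4 stood at 55.6 and 62.7 CPM there and Efnb2 at 87.4 and 148 CPM. Efna1 was endothelial too, at 102 and 74.5 CPM. Efnb1 (B-type, transmembrane) was shared by satellite-glia-like cells, at 124 and 66.2 CPM, and fibroblast-like cells, at 118 and 86.0 CPM. Epha3 was a fibroblast-like gene at 22.3 and 26.1 CPM, and Epha10 a neuronal one at 4.97 and 5.02 CPM.

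RefSeq promoter windows (GRCm38.p6, from 250 bases before to 50 bases after a start) were matched by symbol for 47 of the 53 members and gave 61 windows. Their median GC content was 64.0%, against 52.7% over all 32851 windows. The GC box GGGCGGG, searched on both strands, was found in 39 of the 61 windows (63.9%), against 25.6% of all windows. The letters TATAAA, also searched on both strands, were found in 1 member window, that of Efnb2 (1.64%, against 13.6% of all windows), and the cAMP response element TGACGTCA in 1, that of Epha2 (1.64%, against 1.79%). The EGR motif GCGTGGGCG was found in the windows of Efna3 and Plxna2 only (3.28%, against 0.612%). Such matches describe letters and do not show that a factor binds. The windows of Efnb2, Epha2 and Sema5a are shown because they hold the single TATAAA, the single TGACGTCA and 4 GC box matches, and because each gene is described between the libraries further on. They are printed 5′ to 3′ on the gene's strand, with matches to any of the 4 motifs in capitals. The Efnb2 window is chr8:8661193-8661492 (minus strand), the Epha2 window chr4:141300971-141301270 (plus strand) and the Sema5a window chr15:32244563-32244862 (plus strand).
Efnb2: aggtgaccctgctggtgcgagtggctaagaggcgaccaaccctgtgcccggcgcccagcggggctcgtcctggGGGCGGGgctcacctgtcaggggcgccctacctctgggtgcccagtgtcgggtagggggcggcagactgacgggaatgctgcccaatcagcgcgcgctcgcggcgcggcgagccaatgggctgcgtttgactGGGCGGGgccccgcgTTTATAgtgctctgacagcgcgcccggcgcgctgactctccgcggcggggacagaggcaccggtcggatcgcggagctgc
Epha2: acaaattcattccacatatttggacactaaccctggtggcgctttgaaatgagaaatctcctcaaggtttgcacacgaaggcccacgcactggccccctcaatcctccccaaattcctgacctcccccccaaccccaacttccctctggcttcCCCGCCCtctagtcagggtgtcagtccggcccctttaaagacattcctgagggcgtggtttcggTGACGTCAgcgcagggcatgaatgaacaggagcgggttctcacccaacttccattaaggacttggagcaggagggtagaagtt
Sema5a: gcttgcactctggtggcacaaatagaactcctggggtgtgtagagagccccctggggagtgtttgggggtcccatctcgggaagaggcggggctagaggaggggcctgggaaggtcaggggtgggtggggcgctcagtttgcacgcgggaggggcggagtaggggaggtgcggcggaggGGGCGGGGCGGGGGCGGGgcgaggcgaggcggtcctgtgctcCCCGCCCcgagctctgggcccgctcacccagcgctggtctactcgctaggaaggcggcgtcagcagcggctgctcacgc
Matches that overlap or touch, as in Sema5a, are capitalised together. The match in Efnb2 lies on the opposite strand and reads TTTATA here, and CCCGCCC is the GC box on the opposite strand.

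Neurons were then divided into subtypes by their own markers. The 3 members that differed most between subtypes in both libraries were Nrp1, Plxnc1 and Epha5. Nrp1 was highest in myelinated LTMR-like cells (low-threshold mechanoreceptors, touch neurons with myelinated axons), at 326 CPM in flox (301 to 352, 30 cells) and 284 CPM in cKO (252 to 318, 37 cells). C-LTMR-like cells, the unmyelinated touch neurons, followed with 225 and 173 CPM of Nrp1, and peptidergic-like cells with 83.1 and 61.5 CPM. Non-peptidergic Mrgprd-like nociceptors had only 2.26 CPM of Nrp1 in flox (50 UMIs in 388 cells) and 3.66 CPM in cKO (46 UMIs in 294 cells). These 4 subtypes kept their order for Nrp1 in both libraries, and their intervals did not overlap.

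Plxnc1, a receptor of Sema7a, was highest where Nrp1 was lowest. Non-peptidergic Mrgprd-like cells had 174 CPM of Plxnc1 in flox (168 to 179) and 163 CPM in cKO (156 to 170). In C-LTMR-like cells it was 6.64 and 12.2 CPM and in cold-like cells 8.80 and 4.33 CPM. A Plxnc1 UMI was found in 99.2% of flox and 97.3% of cKO Mrgprd-like cells, and in 25.1% and 23.7% of C-LTMR-like cells. The depths differed less than these shares, with medians of 56797.5 and 41587.5 UMIs in Mrgprd-like and 45497 and 26325 UMIs in C-LTMR-like cells. After thinning to 1000 UMIs the Plxnc1 shares were 16.8% and 13.6% in Mrgprd-like and 0.535% and 2.63% in C-LTMR-like cells. Epha5 marked peptidergic-like cells, at 141 CPM in flox (134 to 148) and 116 CPM in cKO (107 to 125). Of the other named subtypes, none passed 55.6 CPM of Epha5 in flox or 14.9 CPM in cKO. Among sub-clusters left without a subtype name, sub-cluster 8, led by the itch receptor gene Mrgpra3, had 175 and 159.8 CPM of Plxnc1, as much as the Mrgprd-like cells. Sub-cluster 7, led by Hopx and Ntrk3, had 153 and 146 CPM of Nrp1.

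**Figure D2:**
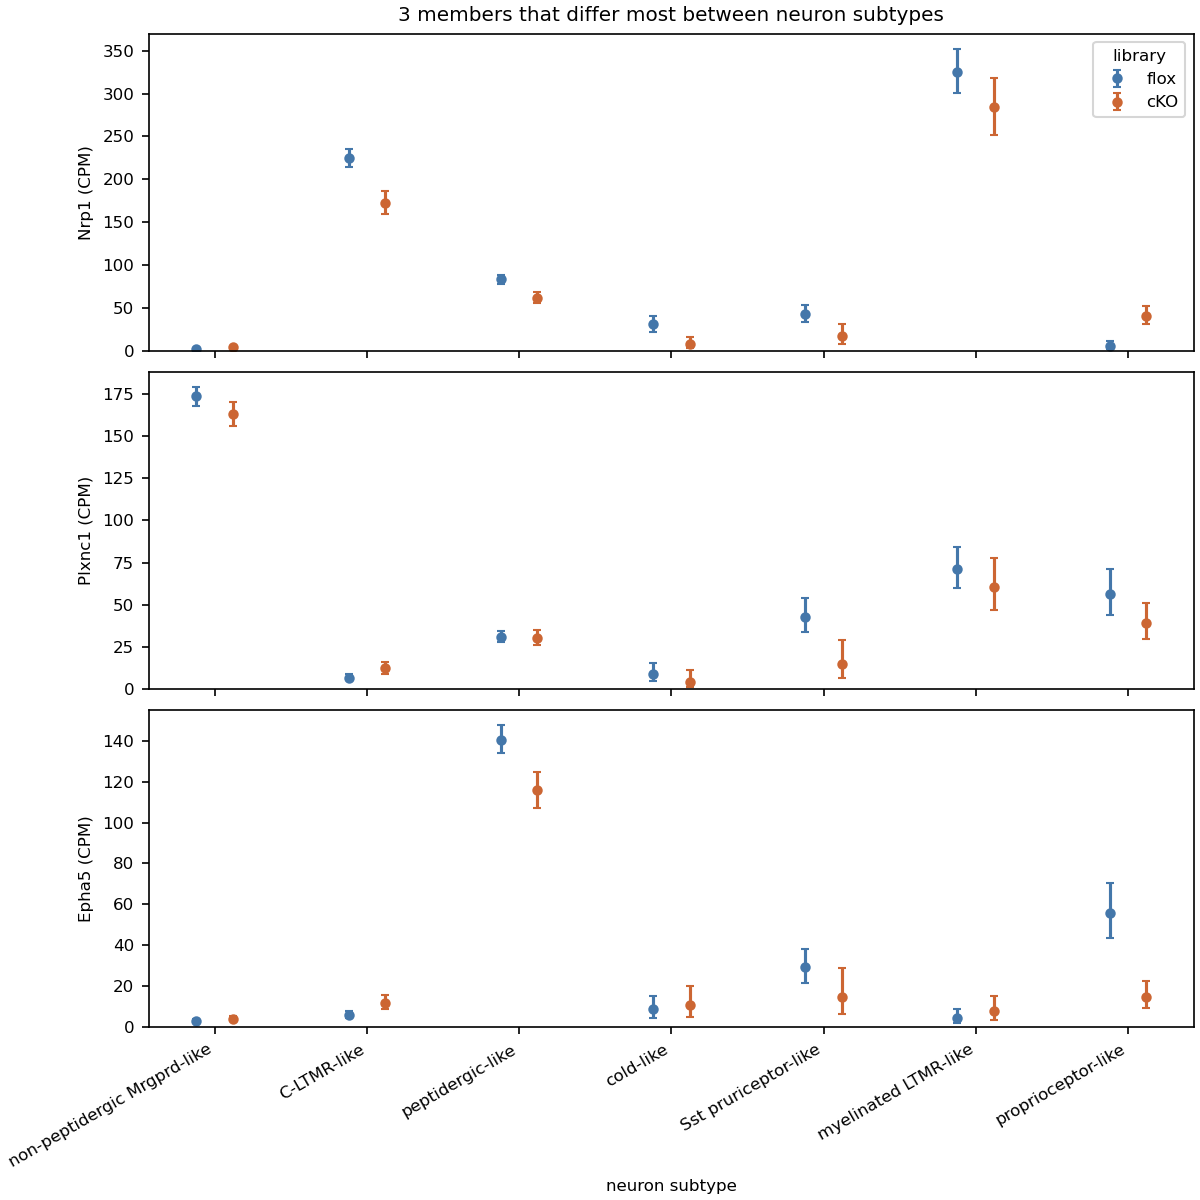
Levels (CPM, with 95% Poisson intervals) of Nrp1, Plxnc1 and Epha5 in 7 neuron subtypes, flox in blue and cKO in orange. Nrp1 is high in the LTMR-like subtypes, Plxnc1 in non-peptidergic Mrgprd-like and Epha5 in peptidergic-like cells in both libraries.

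Further members followed the same subtypes, named here after their values were seen. Plxna4 was highest in myelinated LTMR-like (270.0 and 279.9 CPM) and C-LTMR-like cells (224 and 243 CPM), as was Nrp1. Nrp2 was highest in peptidergic-like cells (88.6 and 64.3 CPM). Sema7a, a ligand of Plxnc1, was at 45.9 and 61.7 CPM in myelinated LTMR-like and 69.2 and 48.9 CPM in proprioceptor-like cells, but at 0.181 and 0.636 CPM in the Mrgprd-like cells that held most Plxnc1. Plxna2 was highest in proprioceptor-like cells, the sensors of muscle length, at 253 and 101 CPM. The Mrgprd-like and C-LTMR-like names cover sub-clusters that the libraries fill unequally. Of the Mrgprd-like cells, sub-cluster 0 held 307 flox and 38 cKO cells and sub-cluster 1 held 81 and 256. For C-LTMR-like cells, sub-cluster 6 held 141 and 69 and sub-cluster 12 held 46 and 83.

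The comparison of cKO with flox asks how these genes differ in each class when the glia carry the Dhh-Cre deletion. A member was counted in a class if it had at least 50 UMIs there over both libraries, and as higher or lower in cKO if the log2 ratio of its levels was at least 0.5 in size. The glia-like cells differed in make-up, since 1688 of 3678 in flox and 747 of 2989 in cKO were myelinating Schwann-like. The part of this make-up in the ratios over all glia was not tested. In all glia-like cells together, 10 of 46 members were higher and 12 lower. Of all 12292 genes measured in glia, 14.0% were higher and 14.5% lower, 28.6% in either direction, and both medians were 0.01 on the log2 scale. In myelinating Schwann-like cells 6 of 35 members were higher and 11 lower, against 15.3% and 15.4% of all genes. Their median log2 ratio was -0.18, against 0.03 for all genes. This direction depended on the clustering. At resolution 2.0, 8 of 29 members were higher and 5 lower with a median of 0.16, and without the clusters nearly all of 1 library 2 of 16 were higher and 10 lower with a median of -0.77. The medians of all genes were -0.01 (9896 genes) and 0.04 (6518 genes) in the same order. The shares of all genes past 0.5 were not counted under these alternatives. By family, 1 of the 5 ephrins measured in myelinating Schwann-like cells was higher (Efnb2) and 4 were lower (Efna2, Efna4, Efna5 and Efnb1), with a median of -0.78. In satellite-glia-like cells 1 of 19 was higher and 4 lower, against 7.09% and 17.9%, with medians of -0.28 for the members and -0.12 for all genes. Cycling glia-like cells had 5 of 25 higher and 4 lower, against 7.18% and 15.3%. Other glia-like cells had 6 of 30 higher and 8 lower, against 10.4% and 19.8%, or 30.2% in either direction.

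Sema4b, a membrane-bound class 4 semaphorin (ENSMUSG00000030539, chr7:80186841-80226527, plus strand), was higher in cKO glia. All glia-like cells held 4.10 CPM of it in flox (103 UMIs) and 16.9 CPM in cKO (180 UMIs), a log2 ratio of 2.04 (1.68 to 2.40). Within the class, the flox level of Sema4b was 3.66 CPM in myelinating Schwann-like, 2.69 in cycling and 4.41 in other glia-like cells. The cKO levels were 19.2, 13.7 and 17.3 CPM in the same order, so each was above its flox value. In satellite-glia-like cells the Sema4b interval (-0.25 to 1.56, on 18 and 31 UMIs) held 0. Without the clusters that had 95% or more of their cells from 1 library, an alternative chosen after seeing the data, the Sema4b ratio was 1.81 over all glia and 1.06 in myelinating Schwann-like cells, where it was 2.39 with them. From the glia, that alternative took out only clusters filled mostly by flox and kept clusters filled mostly by cKO. A Sema4b UMI was in 0.381% of flox and 1.34% of cKO glia after thinning (2.72% and 5.65% unthinned). Neuron-like cells held 23.0 and 26.2 CPM of Sema4b. A higher cKO level was not confined to glia, since macrophage-like cells held 11.7 CPM of Sema4b in flox and 31.4 CPM in cKO, on under 50 UMIs. Sema4b was also among the leading genes of unnamed cluster 23, which held 0 flox and 202 cKO cells. Summed neuron markers in all glia-like cells were 486 CPM in flox and 635 CPM in cKO, against 22325 and 19616 CPM in neuron-like cells, with 0 of 13 markers at 0 in either library. Their part in the Sema4b difference was not tested.

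Efnb2, the transmembrane ephrin-B2, was 4.14 CPM in flox and 11.1 CPM in cKO glia (log2 ratio 1.43, 1.04 to 1.82), and its level was higher in cKO in each of the 4 glial classes, with an interval that held 0 in cycling glia-like cells. Satellite-glia-like cells held 4.66 CPM of Efnb2 in flox (8 UMIs) and 16.8 CPM in cKO (32 UMIs). Epha7, a receptor for A-type ephrins, was 7.41 CPM in flox and 16.9 CPM in cKO glia (1.19, 0.88 to 1.49). For Epha7, myelinating Schwann-like cells had 2.01 and 6.39 CPM and other glia-like cells 13.6 and 25.9 CPM. Satellite-glia-like cells had 20.4 and 16.8 CPM of Epha7, with an interval that held 0. Without the clusters nearly all of 1 library, the Epha7 ratio over all glia was 0.38.

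Sema5a and Sema6c, membrane-bound semaphorins, were lower in cKO glia. Sema5a (ENSMUSG00000022231, chr15:32244810-32696341, plus strand) was 45.4 CPM in flox (1141 UMIs) and 12.9 CPM in cKO (138 UMIs), a log2 ratio of -1.81 (-2.08 to -1.56). For Sema6c the levels were 40.8 and 14.1 CPM (-1.53, -1.78 to -1.28). Within myelinating Schwann-like cells the ratios were -1.11 for Sema5a (79.1 against 36.6 CPM) and -0.78 for Sema6c (72.0 against 41.8 CPM). The 3 clusters of that class were filled unequally, cluster 5 by 824 flox and 38 cKO cells, cluster 6 by 781 and 31, and cluster 9 by 83 and 678. In cluster 5, Sema5a was 122 CPM in flox and 113 CPM in cKO. In cluster 6 it was 7.05 CPM in flox and came from 2 UMIs in cKO, and in cluster 9 it was 77.1 and 30.4 CPM. Without the clusters that had 95% or more of their cells from 1 library, which took out clusters 1, 5 and 6 from the glia, the Sema5a ratio over all glia was 0.58 and the Sema6c ratio 1.10. Over all glia the direction of both genes thus turned when those clusters, all filled mostly by flox, were left out. Clusters 2 (59 flox and 987 cKO cells) and 9, filled mostly by cKO, stayed in. The glia that remained therefore differed in make-up between the libraries, and within cluster 9 Sema5a was still lower in cKO. Summed myelinating Schwann markers in the myelinating Schwann-like class were 112265 CPM in flox and 45606 CPM in cKO, with 0 of 11 at 0 in either, and their part in these differences was not tested.

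Ephb1, a receptor for B-type ephrins, was 4.54 CPM in flox glia (114 UMIs) and 0.843 CPM in cKO glia (9 UMIs), a log2 ratio of -2.43 (-3.59 to -1.45). Ephb1 stood at 181 CPM in the flox oligodendrocyte-like cells. Sema5a stood at 204 CPM there. Summed oligodendrocyte markers in all glia-like cells were 10751 CPM in flox and 3769 CPM in cKO, with 0 and 1 of the 9 at 0, and some of these genes, such as Mbp and Mag, are also made by Schwann cells. Of other members, Sema6a (629.7 CPM), Sema4d (361 CPM) and Efnb3 (256 CPM) were also high in those oligodendrocyte-like cells. Over all glia Sema6a was 26.6 CPM in flox and 37.3 CPM in cKO, Sema4d 4.94 and 8.52 CPM and Efnb3 4.82 and 5.90 CPM. Plxnb3, high in those oligodendrocyte-like cells too, was lower in cKO in other glia-like cells (61.5 and 40.3 CPM). In myelinating Schwann-like cells Plxnb3 stood at 58.2 and 52.0 CPM, too small a difference to be counted as lower. The part of the oligodendrocyte-like cells in the Ephb1 and Sema5a differences was not tested.

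The members with the highest glial levels, Sema3b, Epha5 and Sema6d, had ratios of -0.43, 0.04 and -0.07 over all glia, and -0.25, 0.19 and -0.07 in myelinating Schwann-like cells. Epha2 in myelinating Schwann-like cells was 10.2 CPM in flox (142 UMIs) and 3.20 CPM in cKO (11 UMIs), a ratio of -1.67 (-2.71 to -0.79). In satellite-glia-like cells, Sema3b was 232 CPM in flox and 182 CPM in cKO (log2 ratio -0.35, -0.56 to -0.14) and Efnb1 was 124 and 66.2 CPM (-0.91, -1.24 to -0.58). Sema3g was 76.3 and 44.7 CPM (-0.77, -1.18 to -0.37). Sema6d was higher, at 59.4 and 93.0 CPM (0.65, 0.29 to 1.01). At a clustering resolution of 2.0 the satellite-glia-like ratio of Efnb1 was 0.31 and that of Sema6d 0.03, so these ratios depended on which cells were given the name.

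**Figure D3:**
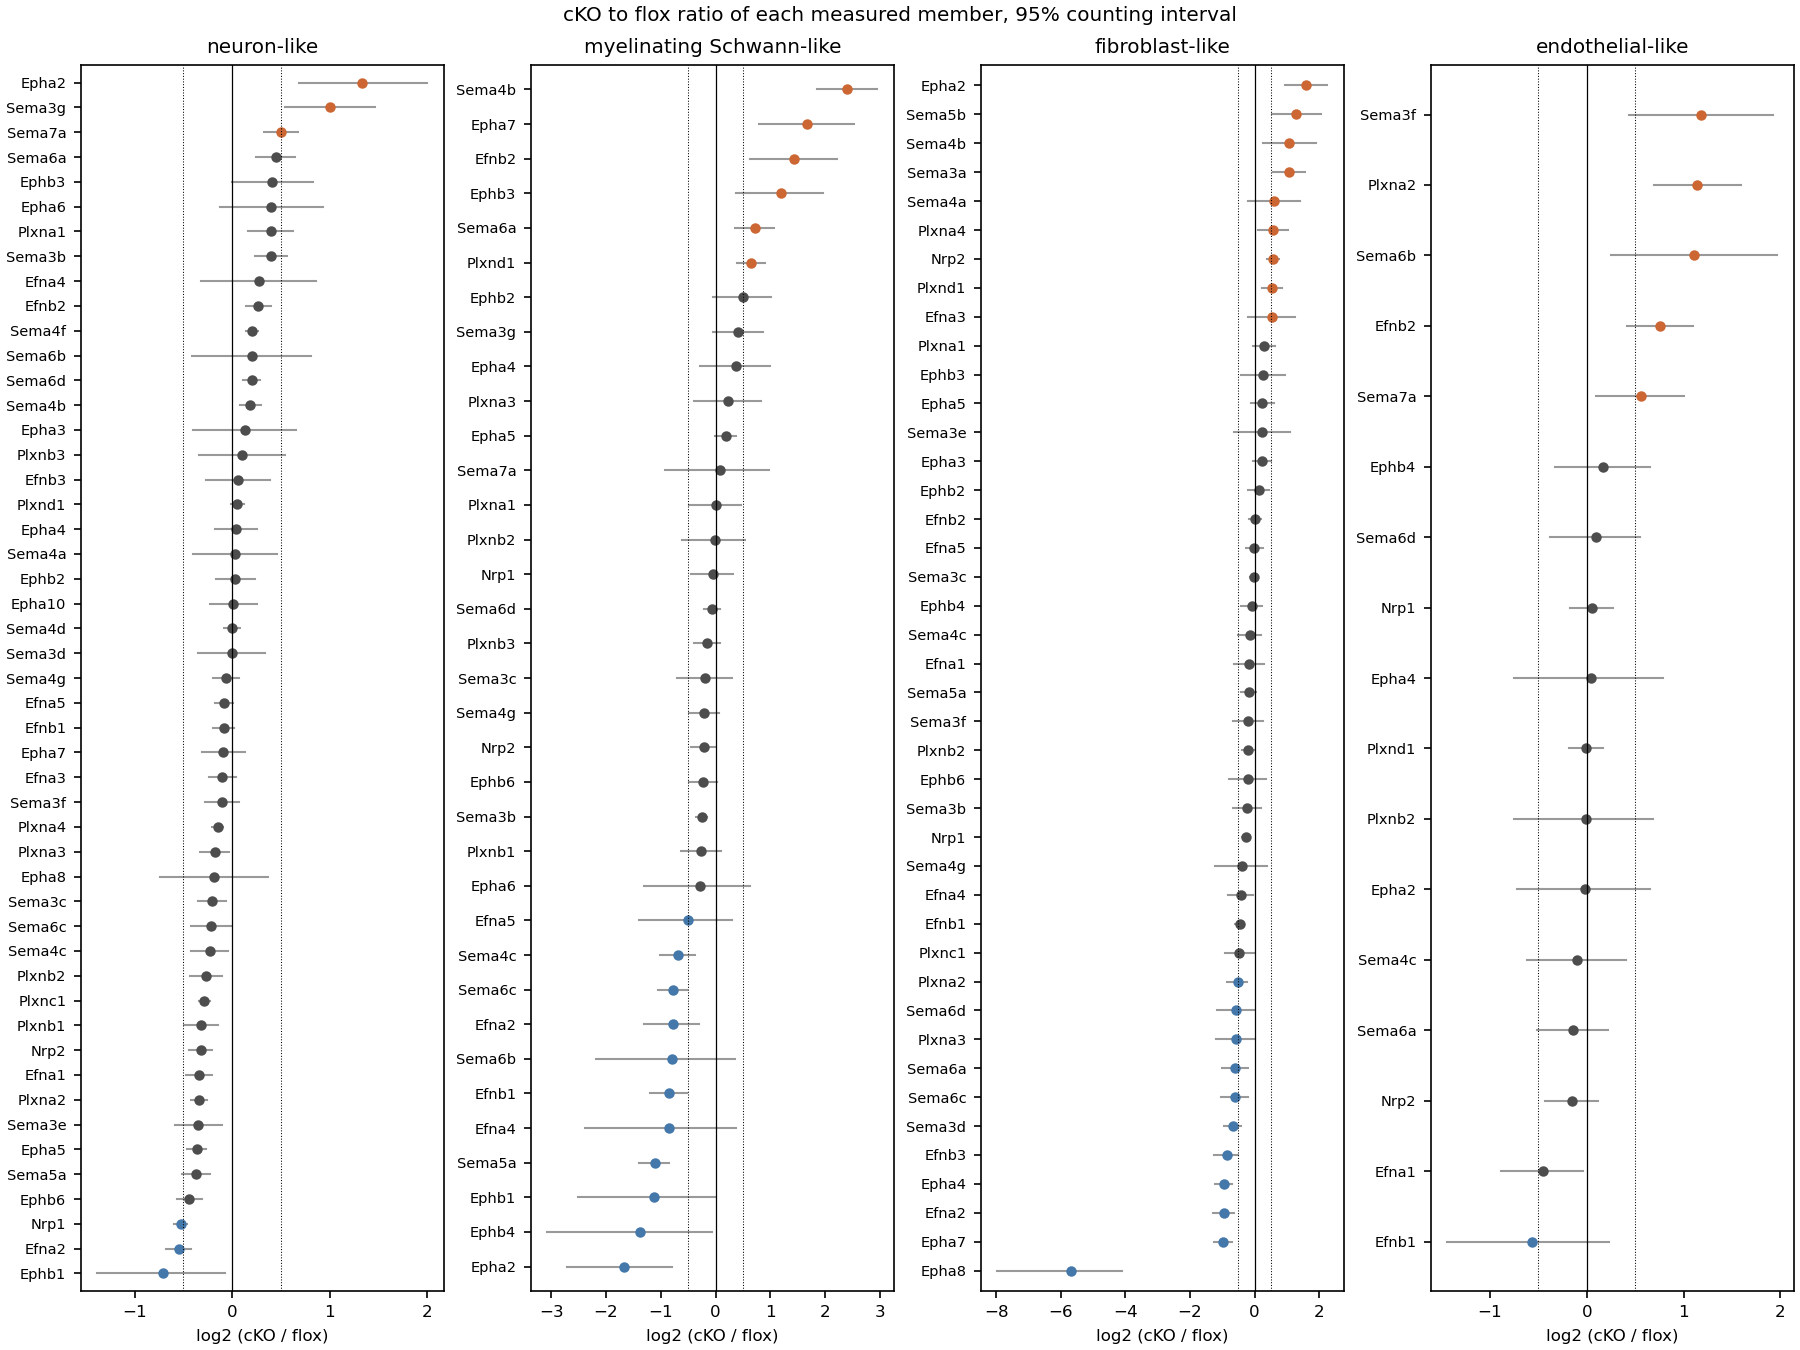
Log2 ratio of the level in cKO to the level in flox (points, with 95% intervals for counting error) for each member with at least 50 UMIs in neuron-like, myelinating Schwann-like, fibroblast-like and endothelial-like cells. Orange points are at or above 0.5 and blue points at or below -0.5, the dotted lines; Epha8 in fibroblast-like cells, at -5.68, lies far from the rest. The x axes differ in range between panels.

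Fibroblast-like cells had 9 of 42 members higher and 11 lower in cKO, against 7.95% and 18.2% of the 11782 genes measured there. The medians were -0.18 for the members and -0.10 for all genes. Sema3c, the leading cue of these cells, did not differ beyond counting error (187 and 184 CPM, log2 ratio -0.03, -0.13 to 0.07). Nrp1 and Efnb1, next in level, were at -0.25 and -0.46. Epha8 (ENSMUSG00000028661, chr4:136929419-136956816, minus strand) was 24.1 CPM in flox (282 UMIs) and 0.468 CPM in cKO (3 UMIs), a ratio of -5.68 with a counting interval of -7.97 to -4.12. Of the 282 flox UMIs of Epha8, 279 came from cluster 16, which held 337 flox and 3 cKO cells and stood at 74.1 CPM. The other 4 fibroblast-like clusters held at most 2 UMIs of Epha8 each in either library. Epha4 and Epha7 were also highest in cluster 16 in flox, at 94.1 and 80.5 CPM. Over the whole class Epha4 was 47.9 and 24.8 CPM (-0.95) and Epha7 was 42.0 and 21.4 CPM (-0.97), and without cluster 16 both ratios were -0.15. These 3 Eph receptor differences thus rested mainly on cluster 16, which the cKO library nearly lacked. With 1 library each, genotype and library cannot be told apart.

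Sema3a, the secreted cue best known for repelling sensory axons, was higher in cKO fibroblast-like cells, at 12.0 against 5.72 CPM (77 and 67 UMIs, log2 ratio 1.07, 0.58 to 1.57). In the clusters that held most of it the difference had the same direction: 9.25 and 16.5 CPM in cluster 7, and 9.71 and 17.6 CPM in cluster 13. Epha2 was 2.82 and 8.43 CPM (1.58, 0.93 to 2.25). Sema5b was 2.30 and 5.62 CPM (1.29, 0.53 to 2.06), and cluster 11 held 33 of its 36 cKO UMIs. Summed satellite glia markers in fibroblast-like cells were 6901 CPM in flox and 2365 CPM in cKO, with 0 of 11 at 0, and their part in these differences was not tested.

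**Figure D4:**
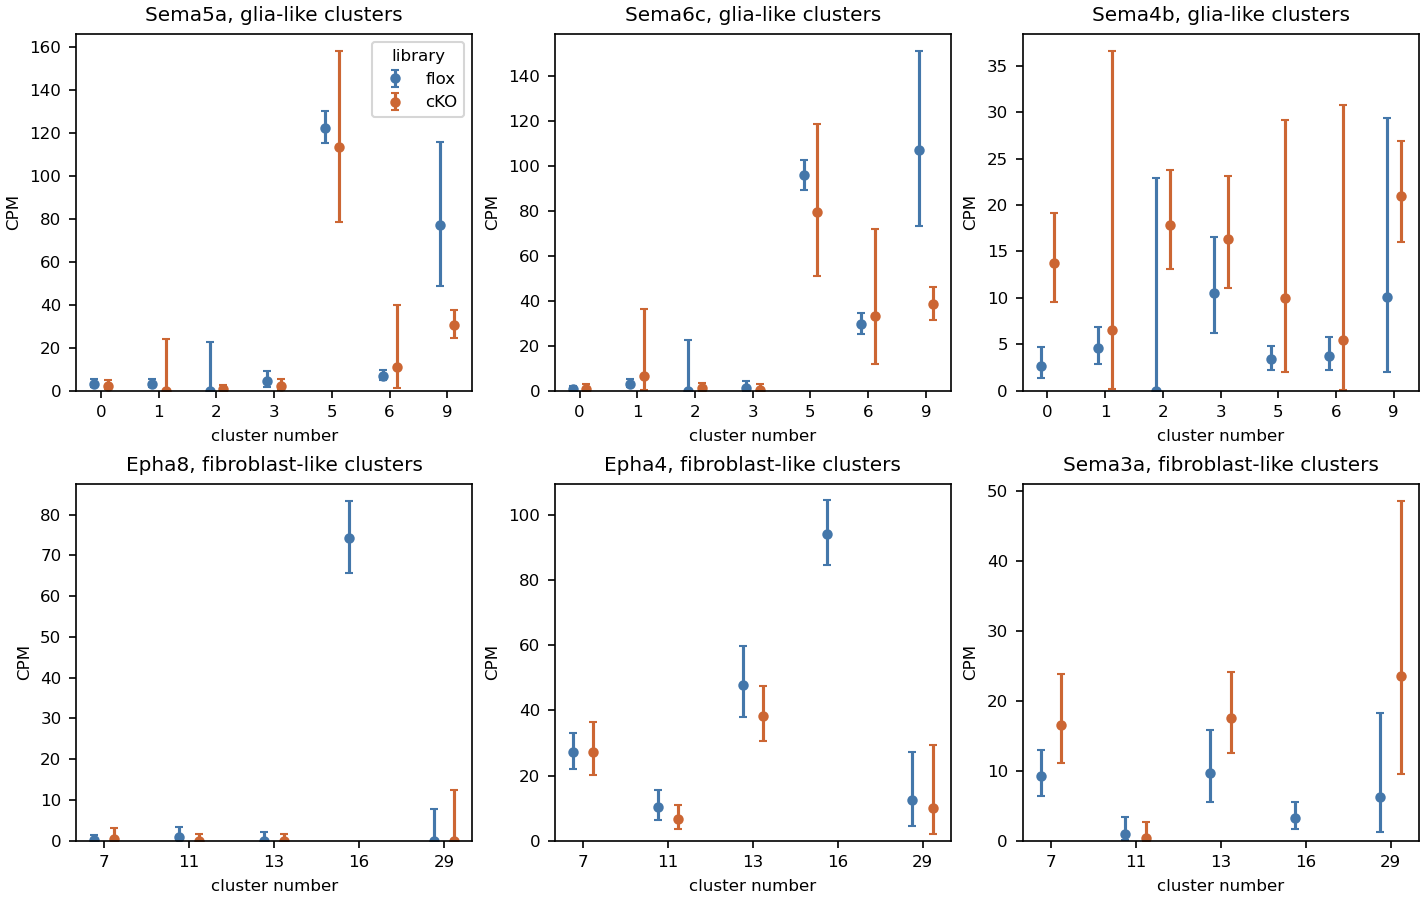
Levels (CPM, with 95% Poisson intervals) by cluster of Sema5a, Sema6c and Sema4b in the glia-like clusters and of Epha8, Epha4 and Sema3a in the fibroblast-like clusters, flox in blue and cKO in orange; a library with under 20 cells in a cluster is not drawn. Sema5a and Sema6c are high in clusters 5 and 9, and Epha8 is seen in cluster 16 of the flox library.

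Endothelial-like cells had 5 of 17 members higher and 1 lower in cKO, against 18.8% and 25.3% of the 6687 genes measured, with medians of 0.04 and -0.08. Of the 6 semaphorins measured there 3 were higher and 0 lower. Plxnd1, Nrp1 and Nrp2, their 3 leading members, had ratios of -0.01, 0.05 and -0.16, each with an interval that held 0. Efnb2 was 87.4 CPM in flox and 148 CPM in cKO (173 and 125 UMIs, log2 ratio 0.76, 0.41 to 1.10). Plxna2, a receptor of class 3 and class 6 semaphorins, was 44.5 and 98.1 CPM (1.14, 0.69 to 1.59). Sema3f was 16.7 and 37.8 CPM on 33 and 32 UMIs (1.18, 0.43 to 1.93), and Efna1 was 102 and 74.5 CPM (-0.46, -0.89 to -0.04). Mural-like cells, the pericytes and smooth muscle of vessels, had 2 of 6 higher and 1 lower, against 17.2% and 26.6%. There Nrp1 was 112 and 206 CPM (0.87, 0.45 to 1.30, and 0.20 by the mean of each cell's CPM), Efnb2 was 26.4 and 66.5 CPM (1.33, 0.50 to 2.18) and Plxnb2 was 88.4 and 55.4 CPM (-0.67, -1.39 to -0.01). Sema5a did not differ, at 97.5 and 97.6 CPM, but on 85 and 44 UMIs its interval ran from -0.56 to 0.54. Summed mural markers in this class were 28452 CPM in flox and 13560 CPM in cKO, with 0 of 10 at 0, and their part was not tested.

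Efnb2 was thus at a log2 ratio of 0.76 or more in endothelial-like, mural-like and all glia-like cells, while fibroblast-like cells had 54.6 CPM in flox and 54.9 CPM in cKO. Macrophage-like cells had 7 members with enough UMIs, 1 higher and 1 lower, against 12.6% and 21.4% of all genes measured. These were the neuropilins, which went opposite ways. Nrp1 was 185 CPM in flox and 119 CPM in cKO (317 and 76 UMIs, -0.63, -1.02 to -0.27). Nrp2 was 45.5 and 122 CPM (78 UMIs in each, 1.43, 0.95 to 1.90). The class joins clusters 14 and 33, and cluster 33 held 42 flox and 0 cKO cells. In cluster 14 alone Nrp1 was 196 and 119 CPM and Nrp2 was 45.2 and 122 CPM, so both directions held within it. Plxnb2, their other leading member, was at -0.05. After thinning to 1000 UMIs per cell the Nrp1 ratio was -0.20.

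In neuron-like cells 3 of 49 members were higher and 3 lower, against 8.62% and 4.36% of the 14924 genes measured, with medians of -0.06 and -0.02. None of the 9 plexins passed 0.5 in either direction. Nrp1 was 84.0 CPM in flox (81.8 to 86.2) and 58.2 CPM in cKO (56.1 to 60.4), a log2 ratio of -0.53. The libraries filled the clusters of this class unequally. Cluster 4 held 52 flox and 816 cKO cells and cluster 15 held 55 and 398, while sub-cluster 13, with Nrp1 among its leading genes, held 101 flox and 22 cKO cells. The part of these unequal numbers in the lower Nrp1 over the whole class was not tested. Efna2 was 21.8 and 14.9 CPM (-0.55, -0.68 to -0.42) and Ephb6, an Eph receptor without kinase activity, 21.1 and 15.5 CPM (-0.44). The leading neuronal members moved less, at -0.15 for Plxna4, -0.29 for Plxnc1 and 0.21 for Sema4f. Sema7a was 7.96 and 11.3 CPM (0.50, 0.33 to 0.67). Epha2 (32 and 58 UMIs) and Sema3g (68 and 98 UMIs) were under 2 CPM in neuron-like cells of either library, with ratios of 1.33 and 1.00. Satellite-glia-like and other classes held more Sema3g and Epha2, and summed satellite glia markers in neuron-like cells were 1416 CPM in flox and 2263 CPM in cKO, with 0 of 11 at 0. Their part in these differences was not tested. With the mean of each cell's own CPM, which gives shallow cells the same weight, Sema7a was at -0.10 and 17 of 49 members were lower. The share of all genes lower by that weighting was not counted. By the same weighting the median of all genes was -0.12 and that of the members -0.32.

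The Nrp1 ratio was -0.91 with every cell thinned to 1000 UMIs and -0.45 in cells of at least 10000 UMIs. Nrp1 was also lower in cKO within 5 of the 7 named subtypes. C-LTMR-like cells had 225 and 173 CPM, peptidergic-like cells 83.1 and 61.5, myelinated LTMR-like cells 326 and 284 (an interval that reached 0), cold-like cells 30.5 and 7.57 and Sst pruriceptor-like cells 42.3 and 16.6, flox before cKO. The cold-like subtype held only 47 flox and 55 cKO cells and the Sst pruriceptor-like only 46 and 23, so their cKO levels rest on few Nrp1 UMIs. Nrp1 was higher in cKO in Mrgprd-like cells, where it was lowest, and in proprioceptor-like cells, at 5.56 and 40.4 CPM (7 and 57 UMIs). The proprioceptor-like subtype had 10 of 20 members lower and 3 higher, against 18.7% and 9.48% of all genes, and it was filled unequally. It held 39 flox and 109 cKO cells with median depths of 22115 and 7323 UMIs, and sub-cluster 26, with 1 flox and 41 cKO cells, had the fibroblast genes Col1a1 and Col3a1 among its leading genes. In Mrgprd-like cells 5 of 31 members were higher and 0 lower, against 8.27% and 7.59%. In C-LTMR-like cells 6 of 30 were higher and 3 lower, against 7.8% and 8.12%, among them Plxnd1 at 2.96 and 15.7 CPM (25 and 63 UMIs). Peptidergic-like cells had 3 of 37 higher and 1 lower, against 6.83% and 6.9%. Myelinated LTMR-like cells had 4 of 16 higher and 0 lower, against 9.04% and 9.7%. Cold-like cells had 0 of 7 higher and 3 lower, against 6.78% and 10.5%. Sst pruriceptor-like cells had 1 of 15 higher and 5 lower, against 7.63% and 14.1%, or 21.7% in either direction. Unnamed sub-cluster 7 had 2 of 35 higher and 0 lower, against 7.39% and 7.56%, and sub-cluster 8 had 2 of 29 higher and 2 lower, against 10.2% and 8.69%. Unnamed sub-clusters 2 (76 flox and 253 cKO cells) and 4 (81 and 201) were left out of these counts. Sub-cluster 2 had Mrgprd and other markers of the Mrgprd-like subtype, so the Mrgprd-like comparison lacks those cells.

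The other genes of these pathways were counted as lists. The semaphorin and plexin signalling list holds 42 genes, such as adhesion co-receptors, collapsin response mediators and small GTPases. In all glia-like cells 8 of 40 were higher and 5 lower, with a median of 0.21, against 14.0%, 14.5% and 0.01 for all genes. Farp2 and Farp1, plexin-linked exchange factors, were highest there, at ratios of 1.16 and 1.05, and Limk2, a kinase acting on cofilin, was lowest at -1.32 (19.2 and 7.68 CPM). The Eph and ephrin signalling list of 34 genes had 4 of 28 higher and 5 lower in glia, near the shares of all genes, with a median of 0.03. Abl2 and Nck1, a kinase and an adaptor of Eph signalling, were at 1.03 and 0.96 in glia. Chn2, a Rac-inactivating chimaerin, and Tiam1, a Rac activator, were lowest at -1.92 and -1.31. Other guidance cues and their receptors, 28 netrin, Slit, Robo, RGM and FLRT family genes, had 5 of 15 higher and 1 lower in glia, with a median of 0.40, led by Slit3 at 1.27 (5.42 and 13.0 CPM).

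In neuron-like cells the 3 lists had 3 of 40, 1 of 33 and 3 of 24 genes higher and 0, 0 and 1 lower, against 8.62% and 4.36% of all genes. Chl1, a cell adhesion co-receptor for class 3 semaphorins, and Cdk5, a kinase of the Sema3a response, were at -0.44 and -0.38 there. In fibroblast-like cells they had 6 of 40, 4 of 28 and 2 of 16 higher and 3, 3 and 6 lower, against 7.95% and 18.2% of all genes. Robo1, a Slit receptor, was 33.6 and 7.80 CPM in fibroblast-like cells (-2.10), while its ligands Slit2 and Slit3 were at 0.56 and 0.88. Endothelial-like cells had 5 of 26, 8 of 20 and 5 of 7 higher and 3, 3 and 1 lower, against 18.8% and 25.3% of all genes, so that the first of these counts of higher genes was near the share of all genes. Rnd1, a small GTPase that binds plexins, was 47.0 and 115 CPM (1.29) and Rap1b, a GTPase acted on by plexins, 308 and 668 CPM (1.12) in endothelial-like cells. Abl2 was higher in endothelial-like, macrophage-like, fibroblast-like and all glia-like cells, at ratios of 1.46, 1.59, 1.22 and 1.03. Levels over whole classes cannot tell more cells with a gene from more RNA per cell.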

How the data were processed

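Cells of dorsal root ganglia were profiled by 10x 3′ single-cell RNA sequencing, 1 library for each genotype. The authors deposited raw UMI counts per gene and cell barcode, whole numbers that were not normalized. The matrix was written by Cell Ranger 6.1.2 per the file headers, whereas the submitters' processing notes name Cell Ranger 5.0.1, Scanpy and the mm10 build. The flox matrix held 10014 barcodes and 132620886 UMIs and the cKO matrix 9703 barcodes and 78144437 UMIs.

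Barcodes under 1000 UMIs, under 500 genes or over 15% mitochondrial UMIs were left out. The highest Scrublet scores (scanpy 1.11.5) were then removed at 0.8% per 1000 cells (607 flox and 569 cKO cells), because the automatic threshold marked 0 and 2 cells. Cells were clustered with leidenalg 0.10.2 on 2000 variable genes without the members (30 components, 15 neighbours, resolution 1.0). A cluster was named "-like" from at least 3 markers that made up most of the list of its class. Clusters that had most markers of unlike classes, or were led by genes of another class, stayed unnamed. The neurons were divided further on 20 components. UMIs were summed per class and library. Levels carry exact Poisson intervals, shares of cells exact Clopper-Pearson intervals and ratios exact binomial intervals, all at 95%. They cover counting error only. Apart from these intervals, a floor of 3 UMIs was set for a count of 0.

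The genes described were, per class, the 3 members of highest level and the 3 highest and 3 lowest ratios by the interval bound nearest 0, for the subtypes the 3 members of largest range after adding 10 CPM, and for each pathway list the 2 highest and 2 lowest ratios, of which examples are given. Members and lists were chosen with earlier results of these data known. Alternatives covered scaling (edgeR 4.0.16 TMM and median of ratios), the UMI minimum, weighting, thinning, doublets and clustering. On simulated counts the intervals held the true ratio for 95.3% of 14916 neuron-like genes, 95.7% of 10434 myelinating Schwann-like genes and 96.0% of 7483 satellite-glia-like genes. These counts were drawn with Poisson counting error alone, the error the intervals assume, so a share near 95% was built in. The simulation held no spread between cells, animals or libraries and cannot show how the intervals perform on these data. Of the members, Ephb1 overlaps another counted gene, Gm29388, on its strand.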

Additional observations from a re-analysis of the deposited data

Results flagged for a closer look

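For 7 members the log2 ratio was at least 0.5 in one class and at most -0.5 in another, both with intervals that left out 0, under the same contrast of cKO with flox. None of these differences was tested, since each genotype has 1 library. Epha2 was at a log2 ratio of 1.58 in fibroblast-like and -1.67 in myelinating Schwann-like cells, a difference of 3.25. Epha7 was at 1.67 in myelinating Schwann-like and -0.97 in fibroblast-like cells, a difference of 2.64, and its fibroblast-like value was -0.15 without cluster 16. Sema3g was at 1.00 in neuron-like and -0.77 in satellite-glia-like cells, a difference of 1.77. Plxna2 was at 1.14 in endothelial-like and -0.53 in fibroblast-like cells, a difference of 1.67. Nrp1 was at 0.87 in mural-like and -0.63 in macrophage-like cells, a difference of 1.51. Sema6a was at 0.71 in myelinating Schwann-like and -0.60 in fibroblast-like cells, a difference of 1.31. Sema6d was at 0.65 in satellite-glia-like and -0.58 in fibroblast-like cells, a difference of 1.23.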

How the results depend on the processing

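A single member's ratio was counted as moved where an alternative put it outside the 95% counting interval of its reported value, so ratios on few UMIs had more room. By that rule 336 values stayed inside, 26 moved and 4 reversed. Changing the UMI minimum could not alter a single member's ratio, and some changes of clusters left the cells of a class as they were. Such values stayed inside by construction and are among the 336, so that number is not a measure of stability. The reversed ratios were Sema7a in neuron-like cells by the mean of each cell's CPM (-0.10), Efnb1 in satellite-glia-like cells at clustering resolution 2.0 (0.31), and Sema5a (0.58) and Sema6c (1.10) over all glia without clusters that had 95% or more of their cells from 1 library, an alternative chosen after seeing the data. From the glia, that last alternative took out only clusters filled mostly by flox. A median was counted as moved where it left the 95% order-statistic range of the members' ratios, which is wide where few members were measured. Medians moved in neuron-like cells by the mean of each cell's CPM (-0.32), after thinning in neuron-like (-0.47), myelinating Schwann-like (-0.47) and endothelial-like cells (-0.36), and in myelinating Schwann-like cells at resolution 2.0 (0.16) and without the clusters nearly all of 1 library (-0.77). Within their wide ranges, the median at 20 UMIs went from -0.05 to 0.43 in macrophage-like and from 0.16 to 0.57 in mural-like cells. At resolution 2.0 the satellite-glia-like median went from -0.28 to near 0. The number of members past 0.5 in either direction, 6 in neuron-like cells, was 3 at a minimum of 200 UMIs, 20 by the mean of each cell's CPM and 13 after thinning. In myelinating Schwann-like cells 17 became 7 at 200 UMIs and 8 after thinning, and over all glia 22 became 14 at 200 UMIs. In satellite-glia-like cells 5 became 3 with TMM, 3 with median of ratios, 13 at 20 UMIs, 3 at 200 UMIs, 9 by the mean of each cell's CPM, 2 after thinning and 9 at resolution 2.0. In fibroblast-like cells 20 became 11 at 200 UMIs, 9 after thinning and 11 without the clusters nearly all of 1 library. In macrophage-like cells 2 became 4 with TMM, 4 with median of ratios, 6 at 20 UMIs, 1 at 200 UMIs, 0 after thinning and 10 with doublets kept. In endothelial-like cells 6 became 1 at 200 UMIs and 2 after thinning, and in mural-like cells 3 became 9 at 20 UMIs and 0 after thinning. A higher minimum and thinning leave fewer members measured, and for the other changes the cause was not tested. The shares of all genes past 0.5 were not counted under the alternatives, so these numbers of members have no background beside them. Scaling by totals put the median of all genes at -0.12 in satellite-glia-like and mural-like and -0.10 in fibroblast-like cells. Mural-like cells had no member at 200 UMIs, and no satellite-glia-like class formed at resolution 0.5, so neither gave a value. The class of highest level was the same as over both libraries for 46 of 53 members in flox alone, 45 in cKO alone, 47 after thinning and 46 at resolution 2.0. No paired analysis was possible because each genotype has 1 library.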

Other observations

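The flox library alone held cells with markers of the central nervous system. In its 592 oligodendrocyte-like cells Sema6a stood at 629.7 CPM, Sema4d at 361 CPM, Efnb3 at 256 CPM, Sema5a at 204 CPM, Ephb1 at 181 CPM and Plxnb3, a glial plexin, at 144 CPM. In its 168 astrocyte-like cells Epha5 stood at 715 CPM, Sema6d at 217 CPM and Sema6a at 161 CPM. With 0 such cells in cKO, no comparison was made.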
